A study of Gallus gallus with 33 samples.

Results

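ATBF1, EBF and PRDM15 are 3 transcription factor genes measured on arrays of the cultured chick utricle after a laser lesion. As the labels give the dyes, their normalized ratios of lesioned over control cultures were higher at 2 hr in both biological samples. The direction of replicate 2 of 2 hr is not settled. With only its arrays with laser RNA in the dye Cy5 read the other way, 0 of the 3 genes were above 0 in both samples. With only those in the dye Cy3 read the other way, 3 were. Reading all its arrays the other way gives 0 by construction. The genes are 3 of 1516 identifiers analysed on these arrays and 3 of the 371 that were bright enough to be tested. They were selected on their 2 hr ratios, so those ratios are given here as a description, without a test. The mean ratios at 30 min, 1 hr and 3 hr were not used to pick the genes and were tested. Those samples entered the choice through a spread shared over all 9 samples and through the brightness filter, which counted all 33 arrays. At those times 0 of the 3 genes passed the test for a difference between lesioned and control cultures, and 0 of all 371 tested probes did.

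All 3 genes encode DNA-binding proteins. ATBF1, now named ZFHX3, is a very large protein that combines many zinc fingers with homeodomains, and it was first known in human cells as a factor that binds an AT-rich enhancer element of the alpha-fetoprotein gene. EBF, now EBF1, is the founding member of the early B-cell factor family, which in the mouse directs B lymphocyte formation and is also found in olfactory neurons. PRDM15 belongs to the PR domain family of zinc finger proteins and in mouse embryonic stem cells it regulates genes of the WNT and MAPK-ERK pathways. Among the RefSeq gene names of chicken (GRCg7b), ATBF1 and EBF were found as synonyms of ZFHX3 and EBF1, and PRDM15 as a current symbol.

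The utricle is a balance organ of the inner ear. Its sensory epithelium was taken from White Leghorn chicks 10 to 21 days after hatching, cut into pieces and grown in culture until semi-confluent. Lesioned cultures were cut with a pulsed laser microbeam and control cultures stood beside the microscope unlesioned, and both were harvested together at 1 of 4 times, from 30 min to 3 hr. In each biological sample 4 lesioned and 4 unlesioned cultures were pooled, their RNA was amplified, and both RNAs were hybridized together in Cy3 and Cy5. The probes were 50-base oligonucleotides of human genes, spotted in duplicate, so a value depends on how well the chicken transcript binds a human probe. There were 2 biological samples each at 30 min (5 arrays), 1 hr (6 arrays) and 2 hr (8 arrays) and 3 at 3 hr (14 arrays), and every sample had arrays of both dye orientations. In such pooled cultures fewer cells of a type and less RNA per cell cannot be told apart.

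Several features of the arrays bear on every value below. Once turned to laser over control, both dye orientations of a sample should be alike, but 4 samples ran the other way across the 371 probes. The correlation was -0.64 in replicate 2 of 1 hr, -0.36 in replicate 2 of 2 hr, -0.78 in replicate 2 of 3 hr and -0.80 in replicate 3 of 3 hr. The direction of these 4 samples is therefore not settled, and the means of 1 hr, 2 hr and 3 hr are also given with their signs turned. These 4 lay below a cut-off of -0.3. No 30 min sample did, but the correlation was only -0.037 in replicate 2 of 30 min, and it was 0.23 in replicate 1 of 2 hr. In 3 hr replicate 1 the log2 ratios had an SD of 1.03 over probes, against 0.16 to 0.40 in the other 8 samples, so 3 hr values are given without it too. That sample also enters the spread shared by all time points. On 2 arrays, 1 of them in 2 hr replicate 2, file names and headers gave opposite dyes, and the header was followed. The median signal of an array ran from 178 to 2411 in Cy3 and from 90.2 to 1438 in Cy5, and on the median array 25.0% and 39.0% of the spots lay below their local background.

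At 2 hr ATBF1 had the highest mean log2 ratio of the 371 probes, 0.83 (SE 0.25, n = 2 samples), or 1.78-fold. Here and below the SE comes from the fit to all 9 samples, and n counts the samples in the mean. In replicate 1 the arrays with laser RNA in Cy3 gave log2 ratios of 1.06, 1.64 and 1.86 and the array with laser RNA in Cy5 gave 0.45. In replicate 2 the Cy3 arrays gave 0.17 and -0.18 and the Cy5 arrays 1.95 and 0.77. All 4 arrays of replicate 1 lay above 0, and in replicate 2 the Cy3 arrays lay on both sides of 0 while both Cy5 arrays were high. The sample values were 0.99 and 0.68, the highest 2 of the 9 samples as the labels give the dyes. The second is of unsettled direction and was -0.68 with its Cy5 arrays or all its arrays turned, rank 8 of 9, and the mean then ranked 82 or 54 of 371.

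EBF had a mean log2 ratio of 0.41 (SE 0.15, n = 2 samples) at 2 hr, or 1.33-fold, and ranked 9 of 371. Its Cy3 arrays gave 0.30, 0.38 and 1.2 in replicate 1 and 0.20 and 0.06 in replicate 2. Its Cy5 arrays gave 0.09 in replicate 1 and 1.30 and 0.29 in replicate 2. EBF was the only one of the 3 genes above 0 on 8 of 8 arrays, although 1 array in each sample was far above the others. The sample values of 0.36 and 0.46 were again the highest 2 of the 9 samples, but the 0.46 of replicate 2 was -0.33 with its Cy5 arrays turned and -0.46 with all turned, the lowest of the 9. The mean then ranked 188 or 280 of 371.

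PRDM15 had a mean log2 ratio of 0.40 (SE 0.16, n = 2 samples) at 2 hr, or 1.32-fold, and ranked 10 of 371. Its Cy3 arrays gave 0.35, 0.89 and 0.48 in replicate 1 and 0.32 and 0.11 in replicate 2. Its Cy5 arrays gave -0.13 in replicate 1 and 1.34 and 0.52 in replicate 2. Here the sample values, 0.22 and 0.57, overlapped the other time points, since 1 hr replicate 1 (0.30) and 3 hr replicate 1 (0.34) lay above 2 hr replicate 1. Replicate 2 was -0.36 with its Cy5 arrays turned and -0.57 with all turned, and the mean then ranked 243 or 341 of 371.

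**Figure D1:**
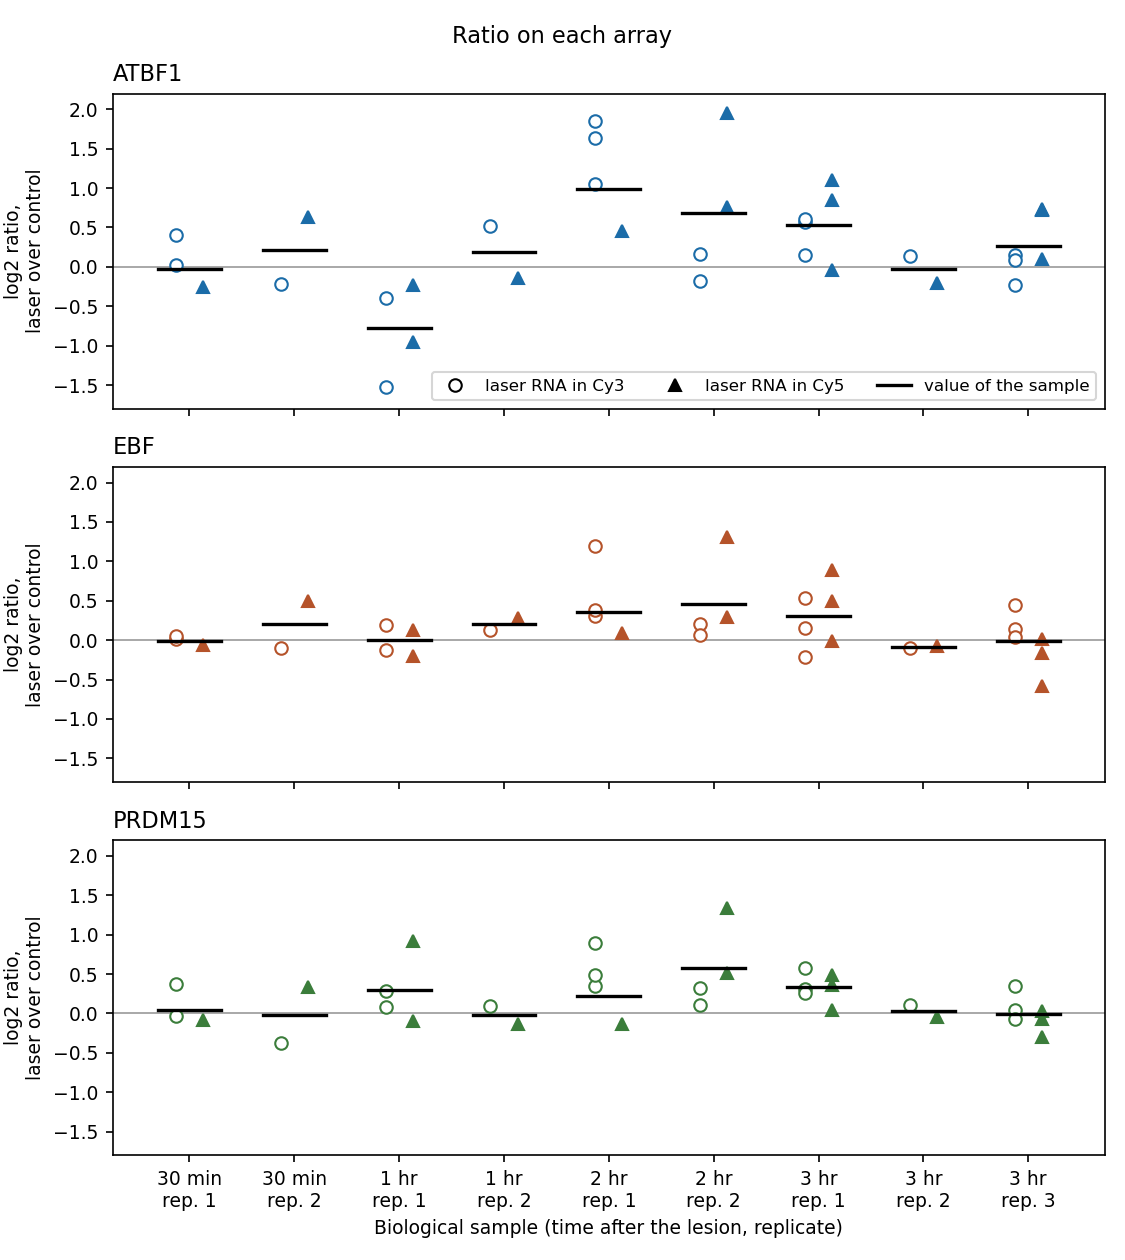
Log2 ratio of laser over control (vertical axis) on each of the 33 arrays, by biological sample (horizontal axis), for ATBF1, EBF and PRDM15. Open circles are arrays with laser RNA in Cy3, filled triangles arrays with laser RNA in Cy5, and the black line is the value of the sample, in which both orientations have equal weight. In 2 hr replicate 1 the circles lie above the triangle for all 3 genes, and in 2 hr replicate 2 the triangles lie above the circles.

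The dye orientation that carried the high 2 hr ratios was not the same in both samples. In replicate 1 the Cy3 arrays averaged 1.52 for ATBF1, 0.63 for EBF and 0.57 for PRDM15, against 0.45, 0.09 and -0.13 on the Cy5 array. In replicate 2 the Cy3 arrays averaged -0.0043, 0.13 and 0.21 in the same order, against 1.36, 0.80 and 0.93 on the Cy5 arrays. The gap between orientations in replicates 1 and 2 was 1.06 and 1.36 for ATBF1, 0.54 and 0.66 for EBF, and 0.70 and 0.72 for PRDM15. For each gene both gaps were more than its mean ratio. A single array, Cy5 array 1 of replicate 2, held the highest 2 hr value of all 3 genes. Without it the 2 hr means were 0.68 for ATBF1, 0.28 for EBF and 0.29 for PRDM15, at ranks 1, 35 and 34 of 371. Without the whole of replicate 2 the ranks were 1, 29 and 64, and without replicate 1 they were 4, 13 and 7.

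The signals behind these ratios followed the dye. Before normalization the laser spots outshone the control spots on 5 of 5 Cy3 arrays at 2 hr and on 0 of 3 Cy5 arrays, for each of the 3 genes. On Cy5 array 1 of replicate 2, for example, the ATBF1 spots read 2162 in the laser channel and 3152 in the control channel. The positive log2 ratio of 1.95 on that array is thus a ratio relative to other probes of like brightness. The median 2 hr signal of the laser and control channels was 1103 and 713 for ATBF1, 643 and 507 for EBF and 605 and 600 for PRDM15. These medians mix 5 arrays with laser RNA in Cy3 and 3 with it in Cy5, so they are not balanced between the dyes.

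**Figure D2:**
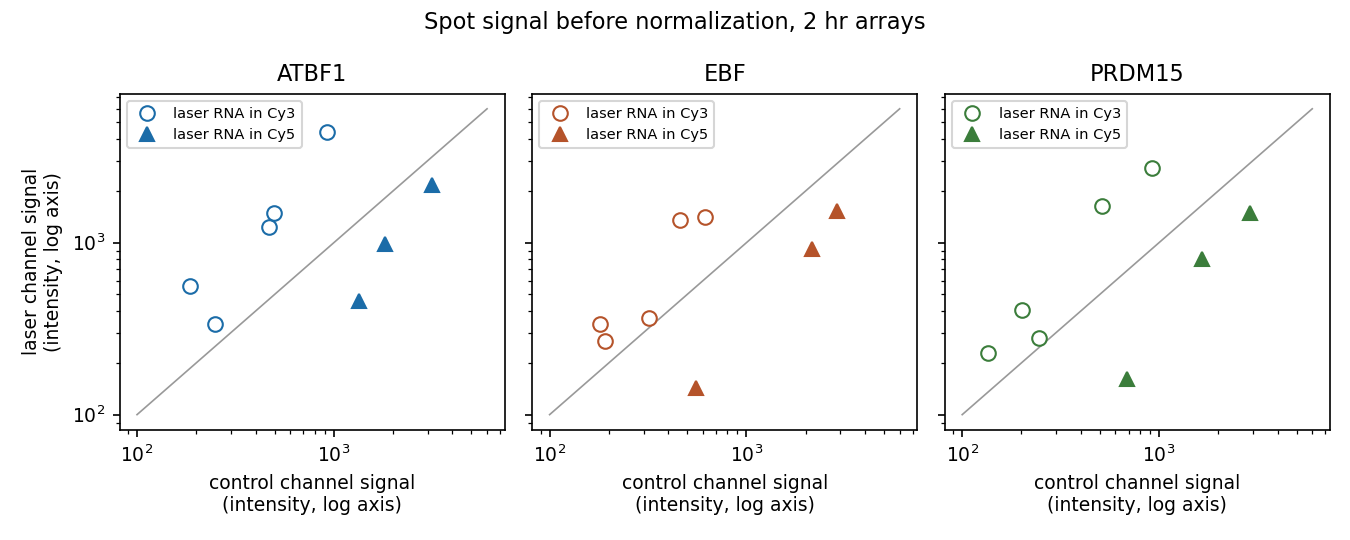
Spot intensity in the laser channel (vertical, log axis) against the control channel (horizontal, log axis) on the 8 arrays of 2 hr, before background correction and normalization. Open circles have laser RNA in Cy3, filled triangles laser RNA in Cy5, and the line marks equal signal. All 5 circles of each gene lie above the line and all 3 triangles below it.

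The probes were not equally far above their surroundings. At 2 hr the ATBF1 spots exceeded local background on 8 of 8 arrays in Cy3 and 7 of 8 in Cy5, at a median of 2.08 and 1.86 times the background. EBF exceeded it on 8 and 6 arrays (medians 1.68 and 1.45) and PRDM15 on 7 and 5 (medians 1.33 and 1.34). PRDM15 was thus the dimmest of the 3 against its own background. On the log2 scale, the ratios of duplicate spots differed by a median of 0.13 for ATBF1, 0.23 for EBF and 0.23 for PRDM15 on the 2 hr arrays. Over all 33 arrays the medians were 0.11, 0.13 and 0.15 in the same order, against 0.13 over all tested probes.

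The 2 hr ratios also moved with the background correction and the normalization. Without background subtraction the 2 hr log2 ratio was 0.52 for ATBF1, 0.043 for EBF and 0.11 for PRDM15. In the deposited ratios, which carry neither background subtraction nor loess and were centred here on each array's median, it was 0.48, 0.038 and 0.042. ATBF1 stayed the highest of the 3 in both, EBF was close to 0 in both and PRDM15 in the deposited ratios. Without background subtraction ATBF1 ranked 1, EBF 143 and PRDM15 57 of 371. In the deposited ratios they ranked 1, 105 and 100. Turning the Cy5 arrays of the unsettled samples gave 0.15 for ATBF1, 0.012 for EBF and -0.069 for PRDM15, and turning the Cy3 arrays gave 0.83, 0.34 and 0.29. Turning all their arrays gave 0.15, -0.054 and -0.17.

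**Figure D3:**
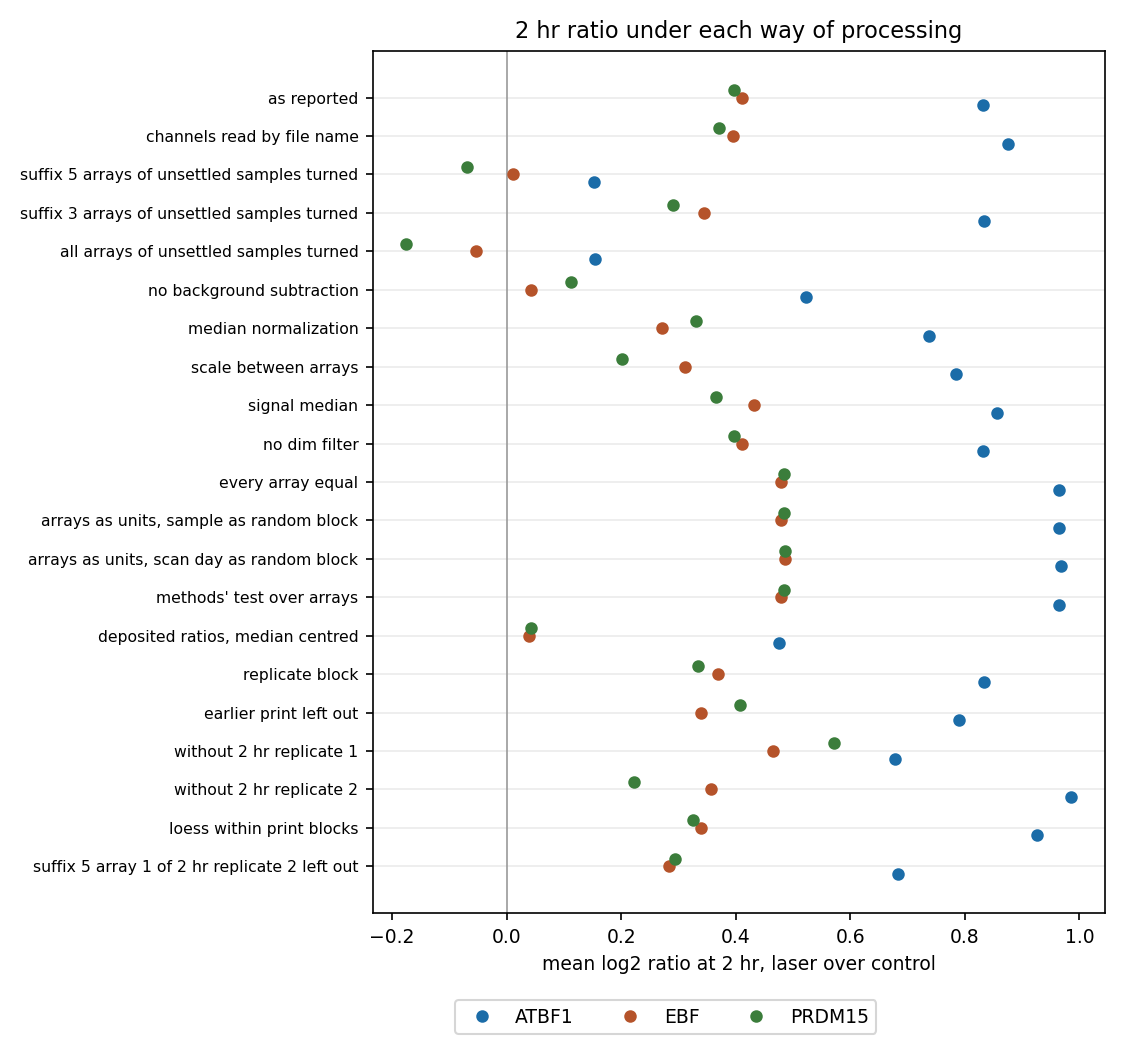
Mean log2 ratio at 2 hr (horizontal axis) of ATBF1, EBF and PRDM15 as reported and under each other way of processing (vertical axis). Suffix 3 means laser RNA in Cy3 and suffix 5 laser RNA in Cy5, and unsettled samples are those whose orientations correlated below -0.3. ATBF1 stays above 0 throughout, between 0.15 and 0.99, and EBF and PRDM15 lie at 0.012 or lower when the Cy5 arrays or all arrays of the unsettled samples are turned.

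EBF and PRDM15 lay in the same print block of the slide and ATBF1 in another. At 2 hr the median ratio of the block of EBF and PRDM15 ran from -0.21 to 0.24 over the arrays. That of the ATBF1 block ran wider, from -0.67 to 0.37, and was -0.67 on Cy5 array 1 of replicate 2, where ATBF1 had its ratio of 1.95. With the loess curve drawn within each print block the 2 hr ratios were 0.93 for ATBF1, 0.34 for EBF and 0.32 for PRDM15. The 2 hr arrays shared 6 scan days with arrays of other times. With arrays as units and the scan day as a random block the 2 hr means were 0.97, 0.49 and 0.49.

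The choice of the 3 genes can be set against all tested probes. Of the 371, 117 (31.5%) were above 0 in both 2 hr samples and 21 (5.66%) on at least 80% of the arrays. The choice was narrowed further by the size of the same 2 hr ratios, also set against a spread shared over all 9 samples. After this narrowing 4 probes (1.08%) remained. This describes how the genes were chosen and is no test of them. The 4 were ATBF1, EBF, PRDM15 and POU5F1, a regulator of pluripotency, which had a log2 ratio of 0.44 (samples 0.53 and 0.35, above 0 on 7 of 8 arrays). Just outside were FOXB1, a forkhead factor, at 0.70 (0.37 and 1.03) but above 0 on only 5 of 8 arrays, and ID1, an inhibitor of basic helix-loop-helix factors, at 0.73 (0.69 and 0.76) and above 0 on 4 of 8. Both had higher means than EBF and PRDM15.

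At 30 min, before the time used for the choice, the 3 genes were close to control. The mean log2 ratios were 0.09 for ATBF1 (SE 0.25), 0.09 for EBF (SE 0.15) and 0.014 for PRDM15 (SE 0.16), with a limma adjusted p of 0.990 for each. The samples gave -0.022 and 0.21 for ATBF1, -0.013 and 0.20 for EBF, and 0.05 and -0.020 for PRDM15. In replicate 2 the Cy3 and Cy5 arrays had opposite signs for each gene. They gave -0.21 and 0.63 for ATBF1, -0.10 and 0.49 for EBF, and -0.37 and 0.33 for PRDM15. The 95% intervals ran from -0.49 to 0.67, from -0.26 to 0.45 and from -0.37 to 0.40. In this comparison 0% of the 371 probes were called after adjustment (p under 0.05) and 0.809% before it, none of them a member. If no probe changed, 18.6 of the 371 would be expected at an unadjusted p under 0.05 in each comparison. Fewer passed in every comparison tested with this fit, so 0 calls do not show that the genes were unchanged.

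At 1 hr ATBF1 was split between its samples. In replicate 1 all 4 arrays lay below 0, at -1.52 and -0.39 with laser RNA in Cy3 and -0.95 and -0.23 in Cy5, and the sample value of -0.77 was the lowest of the 9. In replicate 2 the arrays gave 0.51 and -0.15, for a value of 0.18. The mean was -0.29 (SE 0.25, limma adjusted p = 0.991, 95% interval -0.87 to 0.29), and without replicate 1 it was 0.18. With replicate 2 turned it was -0.22 (Cy5 arrays), -0.55 (Cy3 arrays) or -0.48 (all arrays). EBF had a mean of 0.10 (SE 0.15) from samples of -0.0027 and 0.21, and PRDM15 one of 0.14 (SE 0.16) from 0.30 and -0.022, and the limma adjusted p was 0.991 for both. Turned in the same order, EBF was -0.039, 0.036 and -0.11 and PRDM15 0.21, 0.09 and 0.16. Here 0% of the probes passed the adjusted and 1.08% the unadjusted threshold. Over the 6 arrays of 1 hr the ATBF1 spots exceeded local background on 6 in Cy3 and 4 in Cy5. EBF exceeded it on 4 and 3 and PRDM15 on 2 and 2. Either channel passed the brightness level used to choose tested probes on 0 arrays for ATBF1, 1 for EBF and 2 for PRDM15. On the ATBF1 array at -0.95 the laser channel read 129.7 against a background of 124.9, and the control channel 626.7 against 247.3.

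At 3 hr the highest sample value of each gene came from replicate 1, the sample with the widest ratios. ATBF1 gave 0.54, -0.033 and 0.26 in replicates 1, 2 and 3, EBF 0.31, -0.083 and -0.015, and PRDM15 0.34, 0.034 and -0.0016. The means were 0.25 for ATBF1 (SE 0.20, limma adjusted p = 0.656), 0.07 for EBF (SE 0.12, adjusted p = 0.851) and 0.12 for PRDM15 (SE 0.13, adjusted p = 0.708). Without replicate 1 they were 0.11, -0.049 and 0.016. These means depended on the normalization, at 0.74, 0.48 and 0.50 with median normalization and 0.73, 0.65 and 0.67 in the deposited ratios, with 0 calls. With the unsettled samples turned (Cy5, Cy3 or all arrays) ATBF1 was 0.15, 0.21 or 0.10, EBF 0.17, 0.031 or 0.13 and PRDM15 0.18, 0.052 or 0.10. Over the 14 arrays ATBF1 ran from -0.22 to 1.10 with a median of 0.15 and was above 0 on 11, EBF ran from -0.58 to 0.89 and was above 0 on 8, and PRDM15 ran from -0.30 to 0.57 and was above 0 on 10. The adjusted threshold was passed by 0% of the probes and the unadjusted one by 1.89%. The 3 hr mean lay above the 2 hr mean under 1 of 27 alternatives for ATBF1, the deposited ratios, and under 5 of 27 for EBF and for PRDM15. Some of the 27 leave both means unchanged. For ATBF1 they were nearly equal with median normalization, at 0.738 (2 hr) and 0.736 (3 hr). With the Cy5 arrays of the unsettled samples turned they were 0.152 and 0.149. The 5 alternatives that turned the order for EBF and PRDM15 were the deposited ratios, median normalization, no background subtraction, and the Cy5 arrays or all arrays of the unsettled samples turned.

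**Figure D4:**
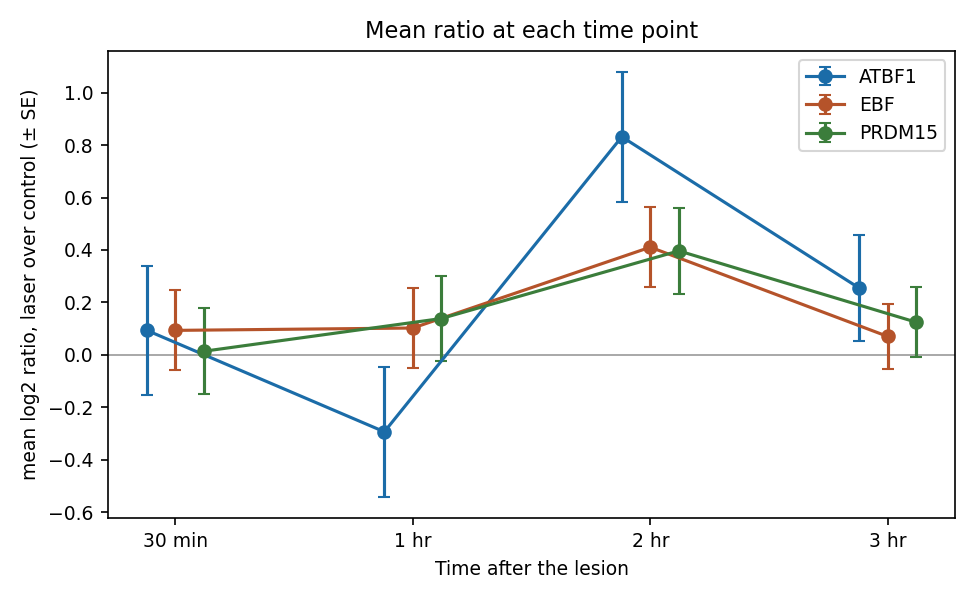
Mean log2 ratio of laser over control (vertical axis) at each time after the lesion (horizontal axis), with the standard error of the fit over 9 samples. As processed here the 3 genes have their highest mean at 2 hr, the time on which they were selected. The 3 hr mean lies above it for EBF and PRDM15 under 5 of 27 alternatives and for ATBF1 under 1. Some of the 27 leave the 2 hr and 3 hr means unchanged. At the other times the means run from -0.29 to 0.25.

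The differences between 30 min, 1 hr and 3 hr gave 0 calls for the 3 genes. From 30 min to 1 hr 0.809% of the probes had an unadjusted p under 0.05, from 1 hr to 3 hr 1.89% and from 30 min to 3 hr 0.539%, and 0% an adjusted one, with no member among them. The smallest unadjusted p of a member was that of ATBF1 between 1 hr and 3 hr (difference 0.55, SE 0.32, limma p = 0.128, adjusted p = 0.955). The methods' t-test, taken over arrays as if technical repeats were independent, gave unadjusted p-values of 0.00962 for ATBF1 and 0.0397 for PRDM15 at 3 hr, and the adjusted p was 0.387 for both. That test passed 9.43% of the probes at 3 hr, 2.43% at 30 min and 4.58% at 1 hr before adjustment and 0 after it, with 0 members at 30 min and 1 hr.

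The 3 genes were not alike in the order of their samples. Across the 9 samples Spearman's rho was 0.73 for ATBF1 and EBF, 0.48 for EBF and PRDM15 and 0.32 for ATBF1 and PRDM15, against a median of 0.10 over pairs of tested probes. These values include the 2 hr samples on which the genes were selected. Over the other 7 samples they were 0.46 for ATBF1 and EBF, 0.07 for EBF and PRDM15 and -0.07 for ATBF1 and PRDM15, and without 3 hr replicate 1 as well 0.14, -0.49 and -0.71. The genes were measured on the same arrays and dyes, and 4 of the 9 samples have an unsettled direction, so these figures are descriptions.

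Among the 370 other tested probes, those most like ATBF1 over the 9 samples were FOXF2, a forkhead factor of mesenchyme (rho 0.78, r 0.73), GFI1B, a zinc finger repressor of blood cells (rho 0.78, r 0.67), and EP300, a histone acetyltransferase (rho 0.77, r 0.68). Those most like EBF were CBX1, a heterochromatin protein (rho 0.80, r 0.78), FOXB1 (rho 0.80, r 0.76) and again EP300 (rho 0.77, r 0.82). PRDM15 was most like ZHX1, a zinc finger and homeobox repressor (rho 0.93, r 0.79), POU5F1 (rho 0.87, r 0.64) and BCL11B, a zinc finger factor of T cells (rho 0.80, r 0.60). The 2 hr samples used for the choice enter these ranks. Without 3 hr replicate 1 EP300 fell to rank 6 for ATBF1, FOXB1 to 6 and EP300 to 10 for EBF, and POU5F1 to 4 and BCL11B to 10 for PRDM15. In EP300 the 2 hr samples stood at 0.19 and 0.50, and in ZHX1 at 0.07 and 0.18.

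Relatives of the 3 genes gave no adjusted call at 30 min, 1 hr or 3 hr. Of 15 other PRDM identifiers 6 were bright enough to be tested. At 2 hr 1 of these 6 was above 0, with a median of -0.26 and a range of -0.28 to 0.08, and the median of all tested probes was -0.0043. The member above 0 was PRDM11, at 0.08. In the EBF family and cofactor list 5 of 10 other identifiers were tested, with 2 hr ratios from -0.23 for OAZ, a zinc finger partner of EBF, to 0.27 for PAX5, which acts with EBF1 in B cells, and a median of 0.0053. Of 4 other zinc finger homeodomain identifiers only ZHX1 was tested (0.12 at 2 hr). Of 7 identifiers of ATBF1 partners 2 were tested, ESR1, the estrogen receptor (0.23 at 2 hr), and KLF5, a Krüppel-like factor (-0.063). KLF5 had the only unadjusted p under 0.05 of a mean ratio in these lists, at 30 min (-1.09, SE 0.46, limma p = 0.0471, adjusted p = 0.990).

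Markers of the cell types were also on the array. SOX2, HEY1 and HEY2, of the supporting cell and sensory epithelium list, passed the brightness filter, with 2 hr ratios of 0.18 (SE 0.56), 0.032 (SE 0.19) and -0.039 (SE 0.15). None of the 4 hair cell markers, 6 mesenchyme and stroma markers or 2 glia and melanocyte markers passed it. It was passed by 3 of 4 neuron and ganglion markers (-0.11 to 0.18 at 2 hr) and 1 of 5 blood markers (SPI1, 0.0053). Only 24.5% of all identifiers passed, so failing the filter does not show that a cell type was absent. Local background was exceeded, in 50% or more of the hybridizations, by 3 hair cell, 6 mesenchyme and stroma and 1 glia and melanocyte markers. The 4 neuron and ganglion and 5 blood markers all exceeded it too. So did 83.4% of all identifiers, and a probe above background therefore says little about a cell type. The part of cell composition in the 2 hr ratios was not tested.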

How the data were processed

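The authors deposited, per the file headers, spot and local background intensity measured by ImaGene, with no normalization, in 66 channel files of 33 arrays. A deposited table of the whole series gives log2 ratios (laser over control) without normalization or centring. The authors' own analysis used lowess, removal of poor hybridizations and dim genes, an 80% trend rule and a t-test, and those values were not used here.

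Background was corrected with normexp (offset 50) and ratios were normalized by loess within each array. Duplicate spots were averaged, then arrays within each dye orientation, then both orientations with equal weight. A probe was tested where 1 of its channels read over 1000 on 50% or more of the 33 arrays (371 of 1516 probes, 24.5%). ATBF1 reached this level on 20 arrays and EBF and PRDM15 on 18 each, so these 2 passed narrowly. For each of the 3 genes 10 of these arrays were of 3 hr. Ratios of the 9 biological samples entered a limma model (version 3.58.1, under R 4.3.3, with statmod 1.5.0) that estimates each time point's mean and a shared spread (5 residual degrees of freedom) and Benjamini-Hochberg adjustment over the 371. Tests were two-sided. The code was tested on simulated data.

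The 3 genes and the gene lists were chosen with earlier results of these data known. Named genes were the members, the 3 tested probes most like each by Spearman's rho, the next 3 probes outside the choice by p at 2 hr among those above 0 in both 2 hr samples, and list members past an adjusted, otherwise an unadjusted, p of 0.05. PRDM11, OAZ, PAX5, ESR1 and ZHX1 as a family member were named after their values were seen, as were the marker genes past the filter. Arrays of a sample are technical repeats, and the number of arrays and samples limits the precision. Alternatives covered dye direction, background, normalization, filter, weighting, unit of test, scan day, print and each replicate left out. No probe sequence was used here, and 1 marker gene is not reported here.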

Additional observations from a re-analysis of the deposited data

Results flagged for a closer look

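In 1 of the 9 groups of 4 to 10 arrays examined for the 3 genes, the most extreme array stood apart from the rest. EBF at 30 min had its highest array at a log2 ratio of 0.49, the array of replicate 2 with laser RNA in Cy5, and the gap to the next array was 0.756 of the whole range. Chance flags about 1 in 20 such groups. The other array of that sample gave -0.10.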

How the results depend on the processing

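None of the 3 genes passed an adjusted p of 0.05 at 30 min, 1 hr or 3 hr under any of 27 alternatives, or between these times under any of 26 (the methods' test gives no differences). Of all tested probes (371, or 1516 without the brightness filter) 16 passed at 3 hr with arrays as units and the scan day as a random block. That setting has no term for the sample, so technical repeats count as replicates, and with the sample as the block 0 passed at 3 hr. At 30 min 1 probe passed without 3 hr replicate 1, and 0 passed in every other case run. Of the 27, 25 were planned and 2 (loess within print blocks, and leaving out Cy5 array 1 of 2 hr replicate 2) were chosen after seeing the data. The number of genes above 0 in both 2 hr samples, 3, became 0 when the Cy5 arrays or all arrays of the unsettled samples were turned. Turning all arrays turns the sign of 2 hr replicate 2 by construction. Turning only its Cy5 arrays does so because they had the higher ratios in that sample. With the Cy5 arrays turned PRDM15 was -0.069 at 2 hr and EBF -0.039 at 1 hr, and with all turned EBF was -0.054 and PRDM15 -0.17 at 2 hr and EBF -0.11 at 1 hr. Without 1 hr replicate 1 the 1 hr mean of ATBF1 went from -0.29 to 0.18 and that of PRDM15 from 0.14 to -0.022. The cause of the sign changes below was not tested. At 30 min these were ATBF1 (-0.0027 scaled between arrays, -0.028 deposited ratios), EBF (-0.013 without background subtraction, -0.018 median normalization, -0.14 deposited ratios) and PRDM15 (-0.038, -0.052 and -0.025 in the same order, -0.047 scaled, -0.0071 loess within blocks). EBF was -0.060 without background subtraction and -0.00011 in the deposited ratios at 1 hr, and -0.070 at 3 hr without the earlier print. Leaving out 1 sample, the ranges were -0.022 to 0.21, -0.013 to 0.20 and -0.020 to 0.047 for ATBF1, EBF and PRDM15 at 30 min, -0.77 to 0.18, -0.0027 to 0.21 and -0.022 to 0.30 at 1 hr, 0.68 to 0.99, 0.36 to 0.46 and 0.22 to 0.57 at 2 hr, and 0.11 to 0.40, -0.049 to 0.15 and 0.016 to 0.19 at 3 hr. A time point left with 1 sample was assumed to vary like the others. Among the 9 differences between 30 min, 1 hr and 3 hr, the sign changed most often for EBF between 30 min and 3 hr, under 13 of 26 alternatives.

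Samples share only a replicate number across times. Same-numbered samples deviated together at r from -0.37 to 0.25. With the replicate block PRDM15 at 30 min was -0.049, 2 hr means were 0.83, 0.37 and 0.33, and calls stayed at 0. The 2 hr means of ATBF1, EBF and PRDM15 then ranked 6, 49 and 56 of 371. Dim spots and 2 to 3 samples a time point limit these values.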
